A study of Homo sapiens with 12 samples.

Results

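The genes described are 10 germline genes of the PIWI-interacting RNA (piRNA) pathway, namely PIWIL1, PIWIL2, PIWIL4, TDRD1, TDRD9, MAEL, DDX4, DAZL, MOV10L1 and ASZ1. They were found on the arrays by gene name, as every probe named for one of them, which gave 13 probes out of 50599 distinct probes. TDRD1 had 2 probes, MOV10L1 had 3, and each of the others had 1. Messenger RNA was measured on 12 one-colour arrays of Colo320DM, a human colorectal cancer cell line. All cells were stably transfected, selected with G418 and picked as GFP-positive colonies. The 3 control clones carried the pcDNA6.2-GW/EmGFP-miR-neg plasmid. The 3 TET1 knockdown clones carried a vector of that type with 1 of 2 artificial miRNAs against TET1, an enzyme that oxidises 5-methylcytosine. Per the paper, 2 of these knockdown clones shared a miRNA and 1 carried the other. The sample labels do not name the miRNA of each clone. For every clone there was 1 mock array and 1 array after 72 h with 5-aza-dC at 1 µM, with drug and medium renewed every 24 h. 5-aza-dC is a cytidine analogue that traps DNA methyltransferases, so that methylation is lost as cells divide. Each group therefore held 3 clones and each clone 1 array per condition, so the tests measure the spread between clones.

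In the germ line, PIWI proteins are loaded with piRNAs and silence transposable elements, by slicing their transcripts in the cytoplasm and by directing DNA methylation of their genes in the nucleus. Tudor domain proteins, RNA helicases and mitochondrial anchor proteins hold this machinery together in granules called nuage. Many of these genes have CpG-rich promoters that are methylated and silent in somatic cells.

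The start regions of the genes that the results turn on are shown to place that CpG content beside the signals. The RefSeq table (GRCh38.p14) had windows of 300 bases, from 250 before to 50 after a transcription start, for 8 of the 10 genes and 11 starts, with no entry for PIWIL2 and PIWIL4. Every CpG is written in capitals, 5′ to 3′ on the strand of the gene. TDRD1, TDRD9, MAEL and DAZL are the genes whose signal appeared on all treated arrays, and PIWIL1 is a member that appeared on none.
TDRD1 (chr10:114179103-114179402, + strand): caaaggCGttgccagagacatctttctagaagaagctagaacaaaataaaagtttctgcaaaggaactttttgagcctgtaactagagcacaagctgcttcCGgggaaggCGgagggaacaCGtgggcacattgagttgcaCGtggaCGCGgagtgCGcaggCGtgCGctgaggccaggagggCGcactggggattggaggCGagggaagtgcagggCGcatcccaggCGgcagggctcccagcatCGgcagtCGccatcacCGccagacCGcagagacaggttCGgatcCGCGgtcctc
TDRD9 (chr14:103928206-103928505, + strand): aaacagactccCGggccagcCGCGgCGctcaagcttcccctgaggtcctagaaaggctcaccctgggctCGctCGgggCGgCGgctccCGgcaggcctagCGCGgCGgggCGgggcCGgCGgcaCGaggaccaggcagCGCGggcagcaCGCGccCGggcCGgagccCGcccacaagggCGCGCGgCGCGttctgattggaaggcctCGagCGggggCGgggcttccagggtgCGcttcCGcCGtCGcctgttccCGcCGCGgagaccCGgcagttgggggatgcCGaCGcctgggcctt
MAEL, outer start (chr1:166975332-166975631, + strand): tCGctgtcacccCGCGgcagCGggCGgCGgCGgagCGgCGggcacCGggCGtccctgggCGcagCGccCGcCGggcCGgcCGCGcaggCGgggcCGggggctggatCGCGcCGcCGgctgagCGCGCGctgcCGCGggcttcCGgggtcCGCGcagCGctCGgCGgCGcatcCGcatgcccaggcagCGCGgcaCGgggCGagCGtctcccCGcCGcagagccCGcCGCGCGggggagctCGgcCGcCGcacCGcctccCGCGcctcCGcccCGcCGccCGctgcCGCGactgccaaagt
MAEL, inner start (chr1:166989030-166989329, + strand): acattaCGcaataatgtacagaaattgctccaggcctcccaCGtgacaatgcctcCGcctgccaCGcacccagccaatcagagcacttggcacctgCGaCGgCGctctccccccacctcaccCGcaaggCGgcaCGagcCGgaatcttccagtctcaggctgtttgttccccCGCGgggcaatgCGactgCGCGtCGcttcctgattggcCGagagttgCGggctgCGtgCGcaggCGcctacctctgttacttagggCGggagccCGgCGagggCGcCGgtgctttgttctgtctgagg
DAZL, outer start (chr3:16605374-16605673, - strand): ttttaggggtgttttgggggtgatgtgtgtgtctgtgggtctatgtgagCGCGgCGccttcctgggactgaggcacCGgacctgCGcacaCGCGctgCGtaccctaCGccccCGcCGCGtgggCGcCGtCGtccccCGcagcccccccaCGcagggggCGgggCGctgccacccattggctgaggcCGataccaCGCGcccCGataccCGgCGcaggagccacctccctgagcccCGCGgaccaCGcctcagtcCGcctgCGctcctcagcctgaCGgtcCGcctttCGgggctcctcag
DAZL, inner start (chr3:16604741-16605040, - strand): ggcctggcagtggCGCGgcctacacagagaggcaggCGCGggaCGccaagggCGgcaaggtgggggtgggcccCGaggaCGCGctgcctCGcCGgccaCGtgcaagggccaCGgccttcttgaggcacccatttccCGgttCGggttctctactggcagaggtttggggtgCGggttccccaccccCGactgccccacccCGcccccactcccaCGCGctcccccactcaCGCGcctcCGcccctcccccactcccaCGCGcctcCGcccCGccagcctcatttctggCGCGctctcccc
PIWIL1 (chr12:130337637-130337936, + strand): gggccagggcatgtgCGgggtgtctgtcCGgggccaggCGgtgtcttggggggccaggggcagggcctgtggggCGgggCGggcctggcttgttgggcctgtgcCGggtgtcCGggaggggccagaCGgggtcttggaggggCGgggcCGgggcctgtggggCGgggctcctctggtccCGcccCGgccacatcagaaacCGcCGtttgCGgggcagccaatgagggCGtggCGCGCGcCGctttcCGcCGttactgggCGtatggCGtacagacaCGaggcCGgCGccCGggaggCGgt
The TDRD1 window held 21 CpG, and a second, overlapping TDRD1 window held 17. The TDRD9 window held 41, the MAEL windows 60 and 27, the DAZL windows 33 and 29, and the PIWIL1 window 30. MOV10L1, with 44, and ASZ1, with 29, were also CpG-rich. Over all 35116 windows of this length the median was 14 CpG and the quartiles 4 and 28. Windows with as many CpG as the outer MAEL window made up 0.0911% of all windows, and those with as many as TDRD9 6.69%. The single DDX4 window held 1 CpG, but it starts at 55766635 on chromosome 5, inside the gene's span of 55738061 to 55817157, so it does not show the outer start of DDX4. Above the upper quartile lay TDRD9, both DAZL windows and the outer MAEL window, and also PIWIL1, MOV10L1 and ASZ1, which did not appear after 5-aza-dC. The TDRD1 windows and the inner MAEL window, with 27, lay below it.

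**Figure D1:**
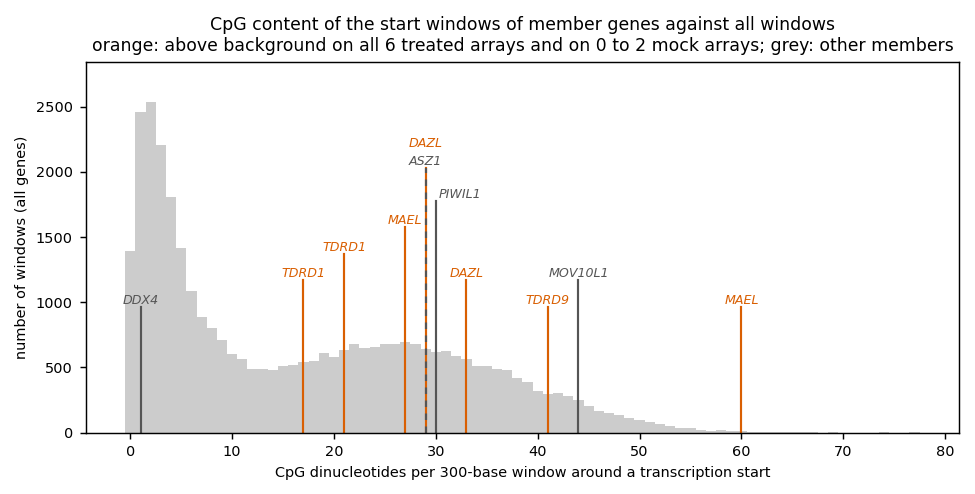
CpG dinucleotides (x axis) in 300-base windows around transcription starts, with the number of windows of all genes on the y axis as grey bars. The vertical lines mark the 11 windows of member genes. Orange members (TDRD1, TDRD9, MAEL, DAZL) lie between 17 and 60 CpG and grey members other than DDX4 between 29 and 44, where DAZL and ASZ1 share the dashed line at 29.

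A pair of short motifs known from germline gene promoters were counted in the same windows. TCCCGC, the core bound by E2F family repressors, occurred on either strand in 7 of 11 member windows and in 26.9% of all windows. CACGTG, an E-box that reads the same on both strands, occurred in 4 of 11 member windows and in 7.26% of all windows. Both motifs hold a CpG, and windows of one gene can overlap, as the pair of TDRD1 windows does, so the windows are not independent. The matches are a description of letters and not of binding.

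The scanner software marked each spot as well above background or not, which is used here as detection. Signals below are log2 values relative to the 75th percentile of the array, so that 0 is the level which 3 in 4 spots do not exceed, and they are comparable between arrays for 1 probe but not between probes. That percentile was 360.6 to 541.8 intensity units over the 12 arrays, the share of detected probes 45.7% to 52.9%, and no spot was saturated. The arrays lay on 2 slides. On slide 2 lay all treated control clones, treated knockdown clone 2 and the mock array of control clone 3, and on slide 1 the others. The line's label was checked with epithelial markers, of which CDX2, CDX1, KRT18 and KRT8 were above background on all 12 arrays, VIL1 on 1 and CDH1 on none. Markers of other cell types were also detected. PTPRC and CD14 of leukocytes and COL1A1 of fibroblasts were above background on all 12 arrays, and LUM on 11, but CD3E on 4, DCN on 1 and COL1A2 on none. Detection of markers therefore does not settle the label. EPCAM and KRT19 rose after 5-aza-dC over all clones, as did COL1A1 of 4 fibroblast markers (1.98), and their part in the results below was not tested. EPCAM was above background on 4 of 6 mock arrays, so its fitted 3.75 is no measured fold. KRT19 was so on none and entered the test only through the treated arrays, with a bound of at least 5.79-fold. The TET1 probes read 52.5%, 39.1% and 47.3% of control in the mock knockdown clones (adjusted p = 0.276, 0.245 and 0.412, limma) and 64.1%, 30.2% and 48.6% in the treated ones (adjusted p = 0.348, 0.127 and 0.136). On these arrays the knockdown was therefore partial and not called on any of the 3 probes. The paper reported the knockdown of TET1 in its clones by RT-qPCR. On the first TET1 probe treated knockdown clone 2 read 3.72, within the treated control clones at 3.48 to 3.79. On the second it read 0.43, below the treated control clones at 1.4 to 1.73. On the last it read -2.33, below the treated control clones at -1.36 to -1.25.

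Before treatment most of the member probes were not detected. Of the 13 member probes, 10 were well above background on none of the 6 mock arrays, as were 21487 of all 50599 probes. After 5-aza-dC, 4 of these 10, the 2 probes of TDRD1 and those of TDRD9 and DAZL, were above background on all 6 treated arrays. Of all probes that were above background on no mock array, 1.09% (235 of 21487) were so on all 6 treated arrays. A 5th probe, for PIWIL4, appeared on 3 treated arrays. The other 5, for PIWIL1, MOV10L1 and ASZ1, were above background on no array. Of the 3 probes seen in mock cells, DDX4 was above background on all 12 arrays, PIWIL2 on all but mock knockdown clone 2, and MAEL on 2 of 6 mock and all 6 treated arrays.

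**Figure D2:**
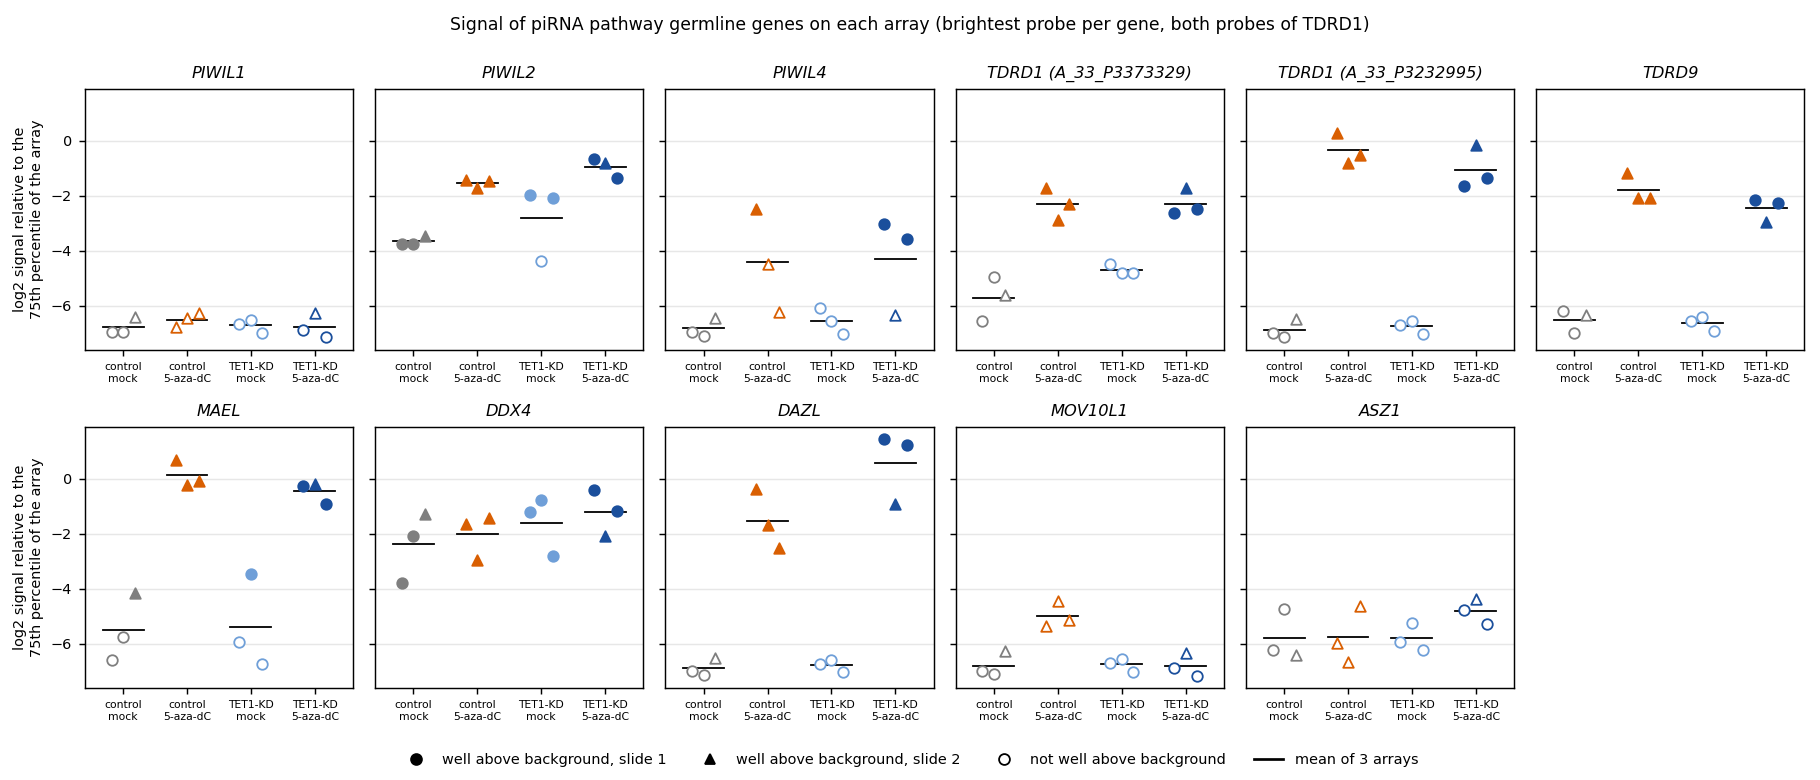
Log2 signal relative to the array's 75th percentile (y axis) on each of the 12 arrays in the 4 groups (x axis), 1 panel per gene and 2 for TDRD1. Filled symbols are well above background, circles are slide 1, triangles slide 2, and lines are means of 3 arrays. TDRD1, TDRD9, MAEL and DAZL rise from near -7 to -3.45 in mock arrays to between -2.97 and 1.45 in treated arrays, while PIWIL1, MOV10L1 and ASZ1 have open symbols on all arrays.

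In the control clones, 5-aza-dC raised 6 of the 13 member probes, which belong to 5 genes, PIWIL2, TDRD1, TDRD9, MAEL and DAZL, at an adjusted p under 0.05 (limma, Benjamini-Hochberg over 24636 probes). No member fell. Over all tested probes 5.31% were called, 3.82% as higher. That background, 1309 probes, depended on mock control clone 3, the only mock array on slide 2. Without it 8940 of 24635 probes were called in control clones, and slide and treatment cannot then be told apart there. Without any other single array of the control clones 498 to 691 were called, and with slide as a block 478. A probe was tested if it was above background on at least 3 arrays of the comparison, which 7 member probes were. The probes of TDRD1, TDRD9 and DAZL passed this filter only through the treated arrays, and so had to differ, which makes the count of 6 out of 7 tested no evidence of its own. The same holds for these probes in the counts that follow, and for PIWIL4 over all clones. MAEL, above background on 1 mock array of each clone type, also needed the treated arrays to pass. In the knockdown clones 5 of the 13 probes rose, those of TDRD1, TDRD9, MAEL and DAZL, against 2.06% of 25389 tested probes called and 2.05% called as higher. With all clones in one fit, 7 of the 13 rose, PIWIL2 and PIWIL4 being added to those of the knockdown clones, against 13.2% of 27287 called and 7.23% called as higher. These 3611 called probes became 7210 without mock control clone 3 and 2019 to 3294 without any other single array. Treated and mock arrays did not overlap for the 6 called probes in control clones, the 5 in knockdown clones, and for all of the 7 except PIWIL4. Over all tested probes 32.9%, 18.9% and 5.98% did not overlap in these 3 comparisons.

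**Figure D3:**
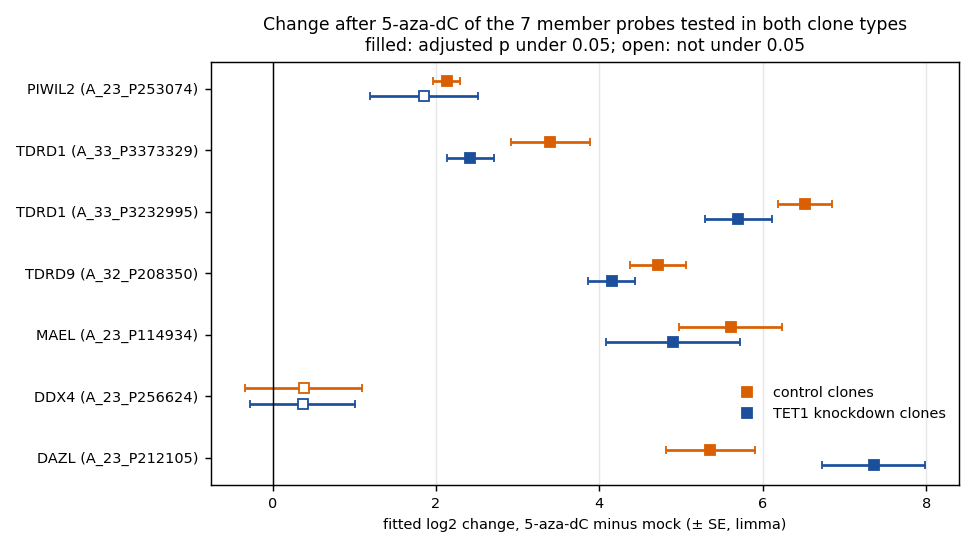
Fitted log2 change, 5-aza-dC minus mock, with its SE (x axis) for the 7 member probes tested in both clone types (y axis). Filled squares passed an adjusted p of 0.05. DDX4 lies near 0 in both clone types, with 0.38 and 0.37, and PIWIL2 is filled in control clones only, at 2.13 against 1.85 in the knockdown clones, a difference between clone types that was itself not called.

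The PIWI proteins are the effectors that carry the piRNA. PIWIL2, a cytoplasmic PIWI protein that slices transposon RNA and takes part in piRNA amplification, was the member PIWI already present in these cells. Its signal was -3.77, -3.74 and -3.48 in mock control clones 1 to 3 and -1.43, -1.71 and -1.45 after 5-aza-dC. In the knockdown clones it was -1.98, -4.38 and -2.09 in mock cells and -0.68, -0.83 and -1.36 after treatment. The groups did not overlap in either clone type, and the mock knockdown clones were spread, with clone 2 the lowest of all 12 arrays. The rise in control clones was 2.13 ± 0.17 (SE, n = 3 against 3), or 4.39-fold with signal above background on both sides, with a limma adjusted p of 0.00217. Without both arrays of control clone 1 or of clone 2 the adjusted p was 0.0515 and 0.0626. In the knockdown clones it was 1.85 ± 0.66 (95% interval 0.27 to 3.44), which was not called (limma adjusted p = 0.452), and it was 1.07 without the mock array of clone 2 and 1.01 without both arrays of clone 2. Treated knockdown clones lay above treated control clones by 0.58 without overlap (interval -0.01 to 1.16, limma adjusted p = 0.264), as did 25% of all tested probes in one direction or the other.

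PIWIL4, the nuclear PIWI protein that directs DNA methylation, appeared in some treated clones and not in others. Its treated signal was -2.47, -4.49 and -6.23 in control clones 1 to 3 and -3.03, -6.32 and -3.59 in knockdown clones 1 to 3, while its mock signals were -7.09 to -6.09. It was above background in treated control clone 1 and treated knockdown clones 1 and 3. These are the 3 treated arrays with the highest 75th percentile, 519.3 to 541.8 against 360.6 to 469.4 for the other treated arrays, and the part of array brightness in this was not tested. It could be tested only over all clones, and entered that test only through the 3 treated arrays above background. It so had to differ, and the call is no evidence of its own. The log2 change was 2.33 ± 0.68 (limma adjusted p = 0.0465), with overlapping groups. Since the other treated arrays were not above background, no fold or bound is given. The call was lost with clone as a block (adjusted p = 0.0536), with slide as a block (0.0603), and without most of the single arrays. PIWIL1, the PIWI protein of later spermatogenesis, was detected on no array although 10 spots were averaged, and its signal lay between -7.13 and -6.28 throughout.

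Tudor domain proteins bind the methylated arginines of PIWI proteins and bring the pathway's parts together. TDRD1 was measured by a probe at 115985909-115985968 of chromosome 10 (hg19) and one further along the gene at 115991963-115992022. On the second probe the signal was -6.99, -7.12 and -6.48 in mock control clones and 0.29, -0.80 and -0.53 after treatment. In the knockdown clones it was -6.70, -6.55 and -7.01 in mock cells and -1.65, -0.16 and -1.36 after treatment. The mock values were not well above background, so only bounds follow, of at least 20.7-fold higher in treated control clones (6.52 ± 0.33 on the log2 scale, limma adjusted p = 0.000627) and at least 11.1-fold in treated knockdown clones (5.70 ± 0.41, adjusted p = 0.00101). A bound sets the treated mean against the lowest detectable signal of each mock array. The first probe gave the same direction with smaller bounds of 5.3-fold and 4.68-fold, from mock values of -6.57 to -4.50 to treated values of -2.87 to -1.73. With slide as a block, where control clones are compared within slide 2 only, the first probe was no longer called in control clones (3.30, adjusted p = 0.118) and the second was (6.14, adjusted p = 0.0126). The first probe also lost its call in control clones without treated clone 1 (adjusted p = 0.058), treated clone 3 (0.0648) or both arrays of clone 1 (0.0602), and in knockdown clones without both arrays of clone 1 (0.102) or 3 (0.176).

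TDRD9, a helicase with a Tudor domain that acts with PIWIL4 in nuage, appeared on every treated array. The probe lies at chr14:104518565-104518624 (hg19). Mock signals were -6.20, -6.98 and -6.32 in control clones and -6.54, -6.40 and -6.90 in knockdown clones, none above background. Treated signals were -1.17, -2.09 and -2.07 in control clones and -2.14, -2.97 and -2.28 in knockdown clones. Treated control clones were at least 7.66-fold higher than mock (log2 change 4.72 ± 0.34, limma adjusted p = 0.00147) and treated knockdown clones at least 4.2-fold (4.15 ± 0.29, adjusted p = 0.000839). The treated knockdown clones lay below the treated control clones without overlap, by -0.69 (95% interval -1.53 to 0.16), which was not called (limma adjusted p = 0.316). Between these groups 25% of all tested probes did not overlap, in one direction or the other.

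MAEL, which works downstream of piRNA-guided silencing and in nuage assembly, was measured on 10 spots per array and lay near the array's 75th percentile after treatment. Its mock signals were -6.58, -5.74 and -4.14 in control clones and -5.94, -3.45 and -6.73 in knockdown clones. The mock arrays above background were control clone 3 and knockdown clone 2. Treated signals were 0.69, -0.23 and -0.08 in control clones and -0.27, -0.19 and -0.94 in knockdown clones, and no treated array overlapped a mock array. The fitted change was 5.61 ± 0.63 in control clones (limma adjusted p = 0.00657) and 4.90 ± 0.82 in knockdown clones (adjusted p = 0.0381). Since only 1 of the 3 mock arrays of each clone type measured it, these are no measured folds. In the 2 clones with MAEL above background on both sides the change was 4.07 (control clone 3) and 3.26 (knockdown clone 2). In the knockdown clones the call was lost without any of 5 of the 6 arrays (adjusted p = 0.08 to 0.161), all but mock clone 2. It was also lost without both arrays of clone 1 (0.5) or 3 (0.219). Slide as a block is there the same check as leaving out treated clone 2, the only knockdown array on slide 2 (4.76, adjusted p = 0.161). In control clones the call was lost without both arrays of clone 2 (adjusted p = 0.103).

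DAZL, a germ cell RNA-binding protein that activates translation of germline transcripts, appeared on every treated array at levels that differed between clones. The probe lies on chromosome 3 (hg19, minus strand) at 16628817-16628876. Mock signals were -7.00, -7.14 and -6.52 in control clones and -6.73, -6.58 and -7.04 in knockdown clones. Treated signals were -0.37, -1.68 and -2.53 in control clones and 1.45, -0.93 and 1.22 in knockdown clones. All mock arrays were below background, treated knockdown clones 1 and 3 were the highest of the 12 arrays, and treated knockdown clone 2 lay within the treated control clones.

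Treated control clones were at least 9.11-fold higher than mock for DAZL (log2 change 5.36 ± 0.54, limma adjusted p = 0.00451) and treated knockdown clones at least 34.6-fold (7.36 ± 0.63, adjusted p = 0.00192). With slide as a block the control value was 4.99 and was not called (adjusted p = 0.062), and the knockdown value was 8.12 (adjusted p = 0.000757). In the knockdown clones slide as a block amounts to leaving out treated clone 2, their only array on slide 2. Without both arrays of a clone the call was lost for control clone 2 (adjusted p = 0.0872) and for knockdown clones 1 (0.0552) and 3 (0.0639). Between treated clone types DAZL was 2.10 higher in knockdown clones (95% interval 0.23 to 3.98), with a limma adjusted p of 0.237. Within slide 2 alone, where treated knockdown clone 2 meets the 3 treated controls, the difference was 0.59, with 1 knockdown array and so no spread of its own. Without that clone it was 2.86 (adjusted p = 0.0234), but all remaining knockdown arrays then lie on slide 1 and all controls on slide 2, so slide and clone type cannot be told apart, and 7935 of all probes were then called. Since no mock array detected DAZL, a difference in response between the clone types has no measured baseline.

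DDX4, the VASA helicase of nuage and a standard germ cell marker, was the member expressed in every array. Its signal was -3.81, -2.08 and -1.28 in mock control clones and -1.64, -2.96 and -1.43 after treatment. In the knockdown clones it was -1.21, -0.79 and -2.82 in mock cells and -0.43, -2.09 and -1.17 after treatment. All 4 groups overlapped, and the changes within clones ran both ways, 2.16, -0.88 and -0.16 in control clones and 0.78, -1.30 and 1.64 in knockdown clones. The mean change was 0.38 ± 0.72 in control clones (95% interval -1.35 to 2.11, limma adjusted p = 0.748) and 0.37 ± 0.64 in knockdown clones (-1.17 to 1.91, adjusted p = 0.872). These intervals leave room for a change of more than 2-fold in either direction.

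MOV10L1, the helicase that feeds precursor transcripts into piRNA production, and ASZ1, a mitochondrial anchor of nuage, were not well above background on any array. The 3 MOV10L1 probes lay between -7.16 and -4.45. The highest values came from 1 probe in the treated control clones, at -4.45 to -5.37, against -7.11 to -6.28 in mock control clones. They stayed below detection, and the other 2 probes did not show this pattern. ASZ1 lay between -6.66 and -4.39 in all groups.

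TET1 knockdown by itself changed no member at the threshold used. In mock cells PIWIL2 and DDX4 were the members that could be tested, with differences of 0.85 (95% interval -0.68 to 2.39, limma adjusted p = 0.609) and 0.78 (-1.09 to 2.65, adjusted p = 0.683). The PIWIL2 difference was 1.64 (adjusted p = 0.0625) without mock knockdown clone 2 and 0.44 to 0.95 without any other single mock array, and the DDX4 difference ran from 0.07 without mock control clone 1 to 1.39 without mock knockdown clone 3. No member was called, and 0.137% of 24751 tested probes were, 34 in number. In treated cells 8 member probes were tested and none was called, against 0.068% of 24996 probes. At an unadjusted p under 0.05 there was 1 member, DAZL, among 4813 probes. The differences were 2.10 for DAZL, 0.78 for DDX4 and 0.58 for PIWIL2, and the 5 of PIWIL4, TDRD1, TDRD9 and MAEL ran from -0.71 to 0.09. For the unequal response to 5-aza-dC in the clone types, 0 of 8 member probes were called by limma and 0 had an unadjusted p under 0.05, while 0.033% of 27287 probes were called and 694 had an unadjusted p under 0.05. The mock baselines of TDRD1, TDRD9, DAZL and PIWIL4 and most of those of MAEL were below background, so that for these probes the test compared no measured responses.

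PIWIL2 was measured on both sides in all clones but knockdown clone 2. Its change was 2.34, 2.03 and 2.03 in control clones 1 to 3, and 1.29 and 0.72 in knockdown clones 1 and 3. In knockdown clone 2 the PIWIL2 signal went from -4.38, not above background, to -0.83. That difference of 3.55 has no measured baseline and was the largest of all clones. With it included, the fitted difference in response between the clone types was -0.28 ± 0.74 and was not called. The mock and treated arrays lay on different slides for control clones 1 and 2 and knockdown clone 2.

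Other genes of the pathway were read from a list of 22, all on the array. Over all clones 9 rose, against 7.23% of all tested probes called as higher, none fell, 5 were tested without a call and 8 were too dim to test. GTSF1, TDRD12, FKBP6, TEX15 and RNF17 were above background on no mock array, entered the test only through the treated arrays and so had to differ. GTSF1, a cofactor of PIWI slicing, and TDRD12, a Tudor protein of secondary piRNA production, were above background on all 6 treated arrays, at least 62.4-fold and 16.6-fold higher (limma adjusted p = 1.1e-06 and 6.48e-08). FKBP6, a co-chaperone in PIWI loading, followed the same pattern, at least 3.11-fold higher (adjusted p = 8.09e-05). HENMT1, the methyltransferase that protects piRNA ends, changed by 4.52 ± 0.38 (adjusted p = 2.9e-05), and GPAT2, a mitochondrial partner of PIWIL2, by 3.97 ± 0.34 (adjusted p = 3.42e-05). HENMT1 was above background on 3 of 6 mock arrays and GPAT2 on 5, so these are no measured folds. TEX15, RNF17, SPOCD1 and TDRD7 also rose. TDRKH, TDRD6, PLD6, MYBL1 and TCFL5, present on all 12 arrays, were not called, with changes of -0.41 to 0.87. In the separate fits 6 of the 22 rose in control clones and 6 in knockdown clones, where 3.82% and 2.05% of all tested probes were called as higher.

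**Figure D4:**
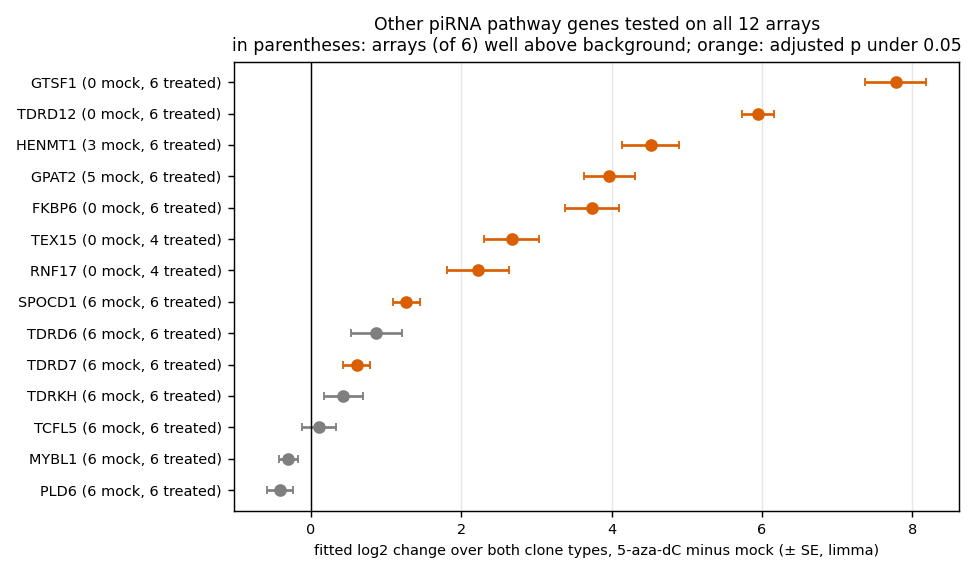
Fitted log2 change over all clones, 5-aza-dC minus mock, with its SE (x axis) for the 14 tested of 22 other piRNA pathway genes (y axis), with the number of mock and treated arrays above background in parentheses. GTSF1 has the largest change, 7.78, and the genes in grey, present on all arrays, lie between -0.41 and 0.87.

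Genes with a like pattern were sought for members above background on at least 6 of the 12 arrays. The arrays share treatment and slide, and the correlations are a description over all 12. Among 17736 candidate genes, Pearson's r was highest with DAZL for DAZ2 (0.998), FAM133A (0.991) and NR0B1 (0.988). DAZ2 belongs to the near-identical DAZ family, and whether its probe also binds DAZL RNA was not tested. With TDRD9 the highest were PLAT and TLR2 (0.992) and TWIST1 (0.991), with MAEL SOX17 and GDA (0.977) and STK31 (0.975), and with TDRD1 DUSP5P (0.966), SH2D3A and SIX2 (0.965). For PIWIL2 they were XLOC_007214 (0.97), LOC100507056 (0.964) and WDR91 (0.96). DDX4, which did not follow treatment, had no gene above the 0.80 of LOC646627.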

How the data were processed

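Messenger RNA came from 6 Colo320DM clones and was hybridised to 12 Agilent 8x60K arrays in a single colour. Deposited were scanner files of the intensity of each spot from Feature Extraction 10.7.3.1 (hg19 annotation). Per the file headers the background was subtracted, a spatial trend removed, and arrays were not normalized to each other. The series table holds the same intensity rounded (largest difference 0.497%). Control spots and outlier-flagged spots were left out, spots of a probe were averaged, and log2 signals were centred on the 75th percentile of each array (all non-control spots). A probe counted as above background when at least 50% of its spots were, and was tested when this held on at least 3 arrays of the comparison. Groups were compared by two-sided tests in limma 3.58.1 (lmFit, then eBayes), run in R 4.3.3 with the data.table package (version 1.17.8), and the Benjamini-Hochberg method was applied over all tested probes at 0.05. Bounds ("at least") set the brighter group's mean against the higher of the probe's own signal and the lowest signal above background on each dim array. For a gene with several probes the one of highest mean was shown first.

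The clone number was taken to pair mock and treated arrays of one clone, since deviations from the group means correlated at 0.213 to 0.316 (control) and 0.428 to 0.524 (knockdown) for equal numbers, and at -0.41 to 0.00896 for unequal ones. Control and knockdown clones of equal number are different clones, so a replicate block between the clone types pairs no like arrays. Alternatives were quantile normalization, normexp (offset 50), the array median as scale, use of the series table, other filters, slide and clone blocks, a joint fit of all arrays, the methods' t-test and leaving out arrays. Scripts were tested on simulated data. Promoter windows came from RefSeq. The members and gene lists were chosen with earlier results of these data known. Named are all members, TET1, the listed pathway genes and the 3 genes most like a member. Of the marker lists, 1 gene is not reported here.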

Additional observations from a re-analysis of the deposited data

How the results depend on the processing

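The 3 arrays per group limit every difference, and signal over background limits folds from dim mock probes. The 6 member probes called in control clones, 5 in knockdown clones and 7 over all clones became 1, 0 and 0 when probes had to be above background on every array, which removes the genes undetected in mock cells by construction. Of all probes that filter left 448 of 20848, 56 of 20759 and 2054 of 19804 called. The methods' t-test called 3 and 2 in the separate clone types, against 316 and 216 of all tested probes. With clone (replicate block) and slide together 0 of all 24636 probes were called in control clones, where clone 3 alone has both arrays on one slide. The 0 of the members there is not particular to them. In knockdown clones 5 member probes were called, against 806 of 25389 tested, and over all clones 4, against 1597 of 27286. The replicate block alone moved no count by over 1.5 times, with 6, 5 and 6 called, and PIWIL4 was the call it ended. Leaving out 1 array or, as an alternative chosen after seeing the data, both arrays of 1 clone gave 3 to 6, 2 to 5 and 6 to 7. The lowest counts came without control clone 2 (3) and without knockdown clone 1 or 3 (2 each), where 212, 170 and 182 of all tested probes were called. Knockdown against control gave 0 called in mock cells, and the interaction 0, under every alternative, while treated cells gave 0 to 1 called in the leave-outs, the 1 being DAZL without treated knockdown clone 2. Normexp reduced log2 changes, as for the second TDRD1 probe in control clones from 6.52 to 2.81, and ended the calls of the other TDRD1 probe in knockdown clones (0.93, adjusted p = 0.0933) and of PIWIL4 over all clones (0.56, adjusted p = 0.0664). The array median as scale shifted the median of all probes to -0.30, -0.38 and -0.34 and turned the calls over all clones from 1974 higher and 1637 lower to 1665 and 8242, and in control clones from 941 and 368 to 922 and 2683. The member probes called then numbered 6 in control, 5 in knockdown and 7 over all clones, all as higher.

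Values that changed sign were all from uncalled results, and the causes were not tested. In knockdown against control the replicate block joined control and knockdown clones of equal number, which are different clones. For 5-aza-dC, DDX4 gave -0.73 in control clones with slide as a block and -0.16 with replicate block and slide, and leave-outs of -0.52 to 1.00 there, -0.26 to 1.21 in knockdown clones, and -0.07 to 0.79 over all clones. Between treated clone types PIWIL4 gave -1.92 with slide and -1.83 with replicate block and slide (leave-outs -0.83 to 1.09), TDRD1 0.19 and 0.64 on one probe and -0.01 in the series table on the other (-0.27 to 0.30), DDX4 -0.08 with slide, and MAEL 0.05 with replicate block and slide. For the interaction DDX4 gave 0.07 with normexp and 0.06 with slide (leave-outs -0.61 to 0.70), PIWIL2 0.17 with replicate block and slide (-1.06 to 0.14), and leave-outs gave -1.10 to 0.82 for PIWIL4 and -1.39 to 0.25 for MAEL.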

Other observations

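Genes of germ cell identity, a list of 13 that does not overlap the pathway lists, moved partly with the piRNA genes. Over all clones 6 of the 13 rose after 5-aza-dC and none fell (limma, 9 tested), against 7.23% of all tested probes called as higher. STK31, BOLL and DPPA2 were above background on no mock array, entered the test only through the treated arrays and so had to differ. STK31, a Tudor domain kinase of nuage, was above background on all 6 treated arrays, at least 4.01-fold higher (adjusted p = 0.000126). BOLL, the third member of the DAZ family, was above background on 5 of 6 treated arrays (log2 change 3.29 ± 0.28, limma adjusted p = 3.36e-05). With a treated array below background, no bound is given for it. POU5F1 and TEX19 were present on all 12 arrays and rose by 1.00 and 0.89 (adjusted p = 0.0175 and 0.043). NANOS2 and LIN28A were above background on no array.

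Genes of the somatic small RNA machinery, EIF2C1 to EIF2C4 (the Argonautes) and MOV10, the paralogue of MOV10L1, were above background on all 12 arrays and none was called over all clones (adjusted p = 0.172 to 0.644). Of 8 coding genes derived from transposons or retroviruses, ERVMER34-1 and PEG10 were detected on all arrays and were not called, with changes of -0.18 and 0.43 (adjusted p = 0.438 and 0.257), and the other 6 were too dim to test. Repeats themselves have no probes among these genes, so transposon transcripts were not analysed here.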
